A study of Homo sapiens with 20 samples.

Results

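Desmosome genes were followed through the conversion of H1 human embryonic stem cells into surface epithelium (SE) and through knockdown of FOXO4 or SP6 during that conversion. The genes were chosen by symbol: desmoplakin (DSP), the desmosomal cadherins DSG2, DSG3, DSC2 and DSC3, the plakophilins PKP1, PKP2 and PKP3, plakoglobin (JUP) and PERP. All 10 were found, out of 31155 gene identifiers listed in any of 5 deposited tables.

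Desmosomes are adhesive junctions that tie the intermediate filaments of neighbouring epithelial or heart muscle cells together. Their cadherins, the desmogleins and desmocollins, meet between the cells, and inside the cell plakoglobin and the plakophilins join the cadherin tails to desmoplakin, which binds the filaments. DSG2, DSC2 and PKP2 are the forms usual in simple epithelia and heart, whereas DSG3, DSC3 and PKP1 are best known from stratified epithelia such as skin.

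RNA-seq was made from 20 libraries in 10 groups of 2. The groups were unmodified H1 cells after 3 days of SE differentiation (SE day 3) against undifferentiated unmodified H1 cells (hESC), and, all of them under SE differentiation, cells carrying short hairpin RNAs (shRNAs) to FOXO4 (shFOXO4) or to SP6 (shSP6) at day 3 and at day 7, each against cells with a scramble shRNA from the same arm and day. FOXO4 and SP6 are transcription factors, and the question addressed was their role in SE differentiation. The labels give neither the number of hairpins per gene, nor whether the cells were a clone or a pool, nor whether replicates were separate cultures, so the p-values reflect no more than the scatter of these samples, and that scatter may be technical.

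Libraries held 14937104 to 30328846 reads assigned to genes. Values are normalized counts as the authors deposited them, and the 5 tables were scaled separately, so levels are compared within a table only. FOXO4 stood at 322 and 319 in shFOXO4 cells and 1875 and 2026 in scramble cells at day 3, and at 35.5 and 35.5 in shFOXO4 cells and 1206 and 1009 in scramble cells at day 7. SP6 stood at 203 and 322 in shSP6 cells and 1790.3 and 1939 in scramble cells at day 3, and at 85.7 and 93.1 in shSP6 cells and 4077 and 3040.1 in scramble cells at day 7. Each targeted gene was thus lower in both knockdown libraries than in both scramble libraries at both days. Each knockdown was also read for the other factor. SP6 stood at 395 and 438 in shFOXO4 and 1142 and 1296 in scramble cells at day 3, and at 520.2 and 457 in shFOXO4 and 5230.1 and 4867 in scramble cells at day 7. FOXO4 stood at 3197 and 3351 in shSP6 and 3084 and 3779 in scramble cells at day 3, with overlap, and at 253 and 225 in shSP6 and 1513 and 1204 in scramble cells at day 7. Lower SP6 thus accompanied FOXO4 knockdown at both days, and lower FOXO4 accompanied SP6 knockdown at day 7.

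The sequence just upstream of 3 member genes is shown because these genes mark the range of responses described here: DSP fell most, DSG2 moved least among the members that were lower in all 4 knockdown comparisons, and PERP lay between. Each window is the 250 bases before the gene start in RefSeq (GRCh38.p14), 5′ to 3′ on the strand of the gene. DSP is at chr6:7541421-7541670 on the plus strand, DSG2 at chr18:31497927-31498176 on the plus strand and PERP at chr6:138107420-138107669 on the minus strand. Capitals mark the letters GGGCGG, bound by SP family factors, and GTAAACA, bound by FOXO factors, on either strand. Neighbouring GGGCGG matches can overlap in a run of capitals.
DSP: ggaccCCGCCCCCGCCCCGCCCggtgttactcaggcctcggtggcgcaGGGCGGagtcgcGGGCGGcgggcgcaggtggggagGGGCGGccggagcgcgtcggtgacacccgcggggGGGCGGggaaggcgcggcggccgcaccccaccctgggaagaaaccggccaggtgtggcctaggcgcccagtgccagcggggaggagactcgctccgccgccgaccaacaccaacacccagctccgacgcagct
DSG2: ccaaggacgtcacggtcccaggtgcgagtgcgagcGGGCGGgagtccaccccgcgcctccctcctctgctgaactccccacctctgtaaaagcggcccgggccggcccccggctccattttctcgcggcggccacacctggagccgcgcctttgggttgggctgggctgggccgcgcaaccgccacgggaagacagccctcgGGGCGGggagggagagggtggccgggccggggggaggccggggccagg
PERP: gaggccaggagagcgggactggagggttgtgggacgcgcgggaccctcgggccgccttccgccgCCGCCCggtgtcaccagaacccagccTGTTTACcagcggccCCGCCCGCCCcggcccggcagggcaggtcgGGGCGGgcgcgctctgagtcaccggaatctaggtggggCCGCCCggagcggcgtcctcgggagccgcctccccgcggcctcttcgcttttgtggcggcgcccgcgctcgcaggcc

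The DSP window held 7 GGGCGG matches and 0 GTAAACA matches, the DSG2 window 2 and 0, and the PERP window 5 and 1. In the windows not shown, GGGCGG matched 2 and 1 times for DSC2, 0 and 2 times for JUP and 1 time for PKP1. It matched 0 times for DSC3 and DSG3. GTAAACA matched 1 time in the DSC2 window with 2 GGGCGG matches and 0 times in each other window not shown. The letters G and C made up 78% of the DSP window, 75.2% of the DSG2 window and 77.2% of the PERP window. Among 35116 RefSeq promoter windows of the same length, 42.64% held GGGCGG and 2.98% held GTAAACA. Those shares count windows with any match, so they give no background for a number of matches. A match describes letters in these windows and is no evidence of a bound factor. A link between match number and response was not tested. Of the 10 genes, 8 had an entry in the promoter table, with 10 windows in all, and PKP2 and PKP3 had none there. The other motifs searched on both strands were GCCNNNGGC for AP-2 factors, present in 19.79% of all windows, and AACNNGTT for Grainyhead-like factors, present in 3.0%. None of the 3 windows shown held AACNNGTT, and only that of DSG2 held GCCNNNGGC.

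In unmodified cells, most desmosome genes rose with 3 days of SE differentiation. DSC2, PKP2 and PKP1 rose most, DSP, JUP and PERP rose by 2.50 to 3.27 fold, DSG2 and PKP3 rose little, and DSC3 fell. Of the 9 members with a mean of at least 10, 8 passed an adjusted p of 0.05 as higher in SE day 3 cells, and DSC3 was the 1 that passed as lower, where 35.2% of 16217 genes tested were called higher and 37.0% lower. The median log2 fold change was 1.64 over the 9 members and -0.02 over all genes. These are bulk libraries, in which fewer cells of a type and less RNA per cell cannot be told apart.

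Summed markers moved in the same comparison, where 35.2% of all genes were called higher and 37.0% lower. All 6 surface ectoderm markers were higher in SE day 3 cells, with sums of 26408 and 25972 in SE day 3 and 516 and 491 in hESC libraries, where TP63 was listed at 0. Of the 6 pluripotency markers 1 was higher and 5 were lower, with sums of 68647 and 72182 in SE day 3 and 114613 and 113952 in hESC libraries. The 5 heart muscle markers, of interest because heart cells also make desmosomes, summed to 113 and 112 in SE day 3 and 60.7 and 69.3 in hESC libraries. The 5 amnion and trophoblast markers summed to 8001 and 7456 in SE day 3 and 94.5 and 103 in hESC libraries, with CGA listed at 0 in hESC, and 4 of 4 tested were higher. The 5 mesenchymal markers summed to 15141 and 14894 in SE day 3 and 4185 and 4521 in hESC libraries, with DCN and LUM listed at 0 in hESC, and 3 of 3 tested were higher. Of the 5 stratified keratinocyte markers, KRT5, KRT14 and IVL were listed at 0 in both groups and KRT1 was not listed. The remaining marker, KRT10, had 234 and 171 in SE day 3 and 272 and 218 in hESC libraries. It was tested and not called (log2 fold change -0.28). The part of cell type composition in the desmosome gene changes was not tested.

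Under each knockdown most desmosome genes were lower than in scramble cells. At day 3 all 9 tested members were lower in shFOXO4 cells, where 30.8% of 15697 genes were called lower, and 7 of 9 were lower in shSP6 cells, where 27.5% of 16548 genes were. At day 7 shFOXO4 cells had 8 of 10 lower and 1 higher, where 35.4% of 16374 genes were lower and 37.1% higher. At day 7 shSP6 cells also had 8 of 10 lower and 1 higher, where 29.6% of 17535 genes were lower and 29.0% higher. With a log2 change of 1 or more also required, 6 members were higher in SE day 3 cells and 0 lower, where 12.2% of all genes were higher and 16.4% lower by that rule. In shFOXO4 cells it left 5 members lower and 0 higher at day 3, where 8.61% of genes were lower and 6.17% higher, and 5 lower and 1 higher at day 7, where 15.6% were lower and 21.5% higher. In shSP6 cells it left 5 members lower and 0 higher at day 3, where 7.74% of genes were lower and 8.43% higher, and 6 lower and 1 higher at day 7, where 11.0% were lower and 13.4% higher. No member was called higher at day 3 in either knockdown, where 31.8% of all genes were higher in shFOXO4 and 28.3% in shSP6 cells.

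The members' median log2 fold change was -1.10 in shFOXO4 and -1.07 in shSP6 cells at day 3, against all-gene medians of 0.01 and 0.00. At day 7 it was -0.94 in shFOXO4 and -1.28 in shSP6 cells, against all-gene medians of 0.02 and -0.02. DSG3 passed the filter on low values at day 7 and not at day 3, mainly through its values in knockdown cells, and it is the 1 member called higher, so that count is no result about the members. Without DSG3, 8 of 9 members were lower and 0 higher at day 7 in each arm, with medians of -1.15 in shFOXO4 and -1.29 in shSP6 cells. Of all members, DSP fell most in every knockdown comparison.

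Marker sums also differed between each knockdown and its scramble. All 6 surface ectoderm markers were lower in each of the 4 knockdown comparisons, and their sums at day 7 were 3919 and 3632 in shFOXO4 and 43409.7 and 41885 in scramble libraries, and 1299.9 and 1197 in shSP6 and 31086 and 23044 in scramble libraries. At day 3 they were 5864 and 6032 in shFOXO4 and 25213 and 25089 in scramble libraries, and 7285 and 8813 in shSP6 and 36574 and 30434 in scramble libraries. Of 6 pluripotency markers, 6 were higher and 0 lower in shFOXO4 cells at both days. In shSP6 cells 5 were higher and 0 lower at day 3, and 5 higher and 1 lower at day 7. Pluripotency markers summed at day 7 to 126327 and 115765 in shFOXO4 and 39393 and 33397 in scramble libraries, and to 120392 and 121669 in shSP6 and 74219 and 89165 in scramble libraries. At day 3 the pluripotency sums were 113195 and 115657 in shFOXO4 and 71258 and 74458 in scramble libraries, and 114162 and 109491 in shSP6 and 69725 and 81450.0 in scramble libraries. The 2 groups of each pair did not overlap in either sum. Of 5 amnion and trophoblast markers all were lower in each knockdown comparison, with sums at day 7 of 864 and 857 in shFOXO4 and 23495 and 23462 in scramble libraries, and 1418 and 1383 in shSP6 and 11575 and 7266 in scramble libraries. Their day 3 sums were 876 and 949 in shFOXO4 and 8696 and 9335 in scramble libraries, and 2176 and 2705 in shSP6 and 18928 and 12788 in scramble libraries. Of 5 mesenchymal markers, 0 were higher and 3 lower of 3 tested in shFOXO4 cells at day 3, 1 higher and 4 lower of 5 at day 7, 0 higher and 3 lower of 4 in shSP6 cells at day 3 and 2 higher and 3 lower of 5 at day 7. Beside these marker counts, 27.5% to 37.1% of all genes were called in each direction in the knockdown comparisons. The mesenchymal sums were 18102 and 17316 in shFOXO4 and 23356 and 21972 in scramble libraries at day 3, and 43623 and 44908 in shFOXO4 and 41993 and 44660.3 in scramble libraries at day 7. In the SP6 arm they were 34173 and 33432 in shSP6 and 32221 and 33565 in scramble libraries at day 3, and 57472 and 53027 in shSP6 and 29045 and 32995 in scramble libraries at day 7. The collagen gene COL3A1 had 1.31 and 2.09 in shFOXO4 and 18595 and 20714 in scramble libraries at day 7, and 3.78 and 6.12 in shSP6 and 6013 and 2382 in scramble libraries, and LUM was listed at 0 in all 4 day 7 knockdown libraries. These 2 genes do not stand for the list, in which 1 of 5 markers was higher in shFOXO4 and 2 of 5 in shSP6 cells at day 7. The mesenchymal sums at day 7 overlapped in the FOXO4 arm and were higher in shSP6 than in scramble libraries. Heart muscle markers summed to at most 294 in any library. The part of these markers in the lower desmosome levels was not tested.

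**Figure D1:**
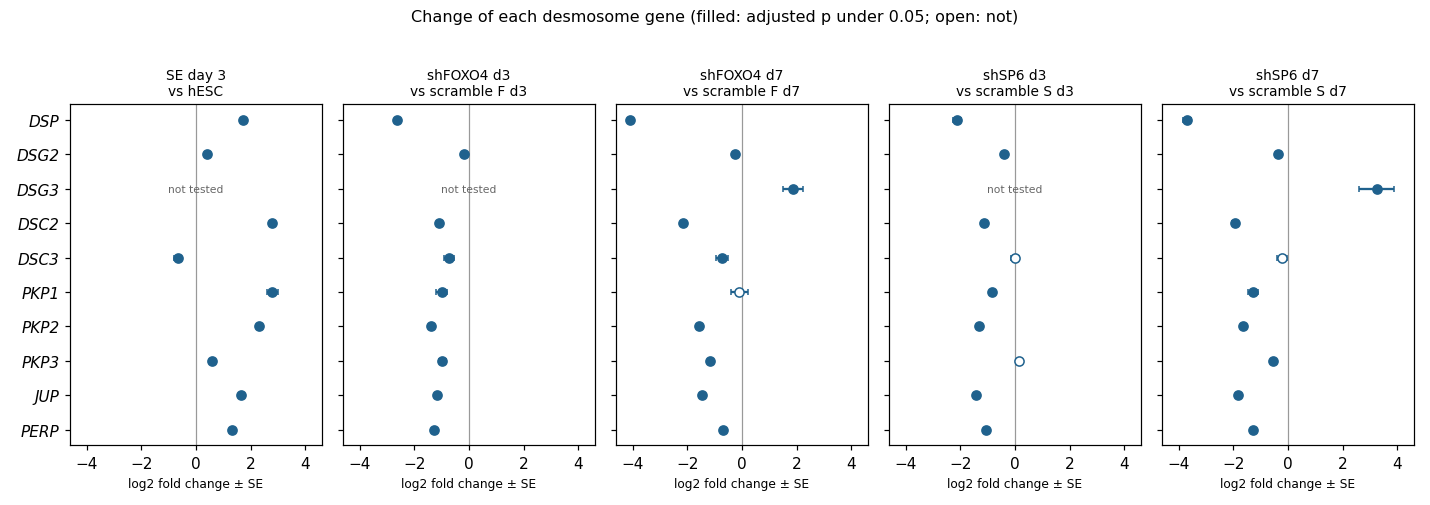
Log2 fold change of each desmosome gene with its standard error (limma, 2 libraries a group), 1 panel per comparison, with filled points at an adjusted p under 0.05. DSP lies farthest left in all 4 knockdown panels, at -2.63, -4.09, -2.12 and -3.70, and DSG2 lies close to 0 in every panel.

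DSP, the plakin that anchors intermediate filaments to the desmosome, had 8088 and 7942 normalized counts in SE day 3 libraries, against 2409 and 2487 in hESC libraries. The 2 groups were far apart, and the log2 fold change was 1.71 ± 0.040 (limma adjusted p = 8.58e-13). With FOXO4 knocked down, DSP had 1647 and 1833 in shFOXO4 and 11105 and 10405 in scramble libraries at day 3, a log2 fold change of -2.63 ± 0.046 (limma adjusted p = 3.21e-38). At day 7 it had 2515 and 2144 in shFOXO4 libraries and 37666 and 41706 in scramble libraries, so that shFOXO4 cells held 5.86% of the scramble level (-4.09 ± 0.082 (limma adjusted p = 1.36e-09) on the log2 scale). Every scramble library at day 7 thus stood well above every shFOXO4 library.

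With SP6 knocked down, DSP had 3429.6 and 4372 in shSP6 and 19717 and 14300.4 in scramble libraries at day 3, a log2 fold change of -2.12 ± 0.14 (limma adjusted p = 4.77e-07). At day 7 it had 1700.3 and 1849 in shSP6 and 27928 and 18967 in scramble libraries, or 7.71% of the scramble level (-3.70 ± 0.15 (limma adjusted p = 4.77e-08) on the log2 scale). Neither pair of groups overlapped, although the scramble libraries of this arm differed more from each other than those of the FOXO4 arm.

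**Figure D2:**
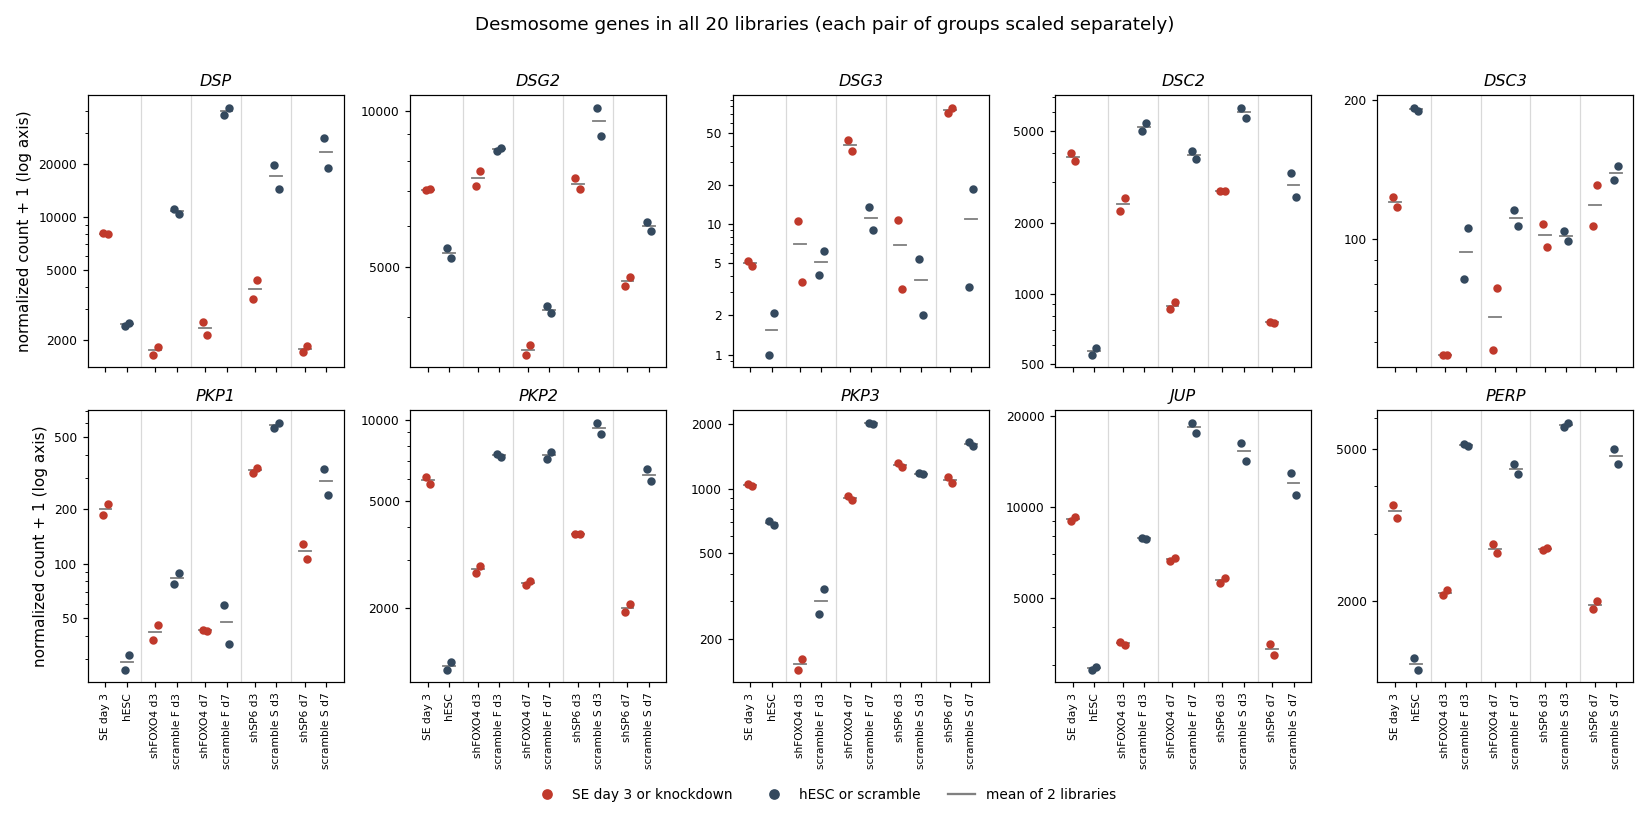
Normalized count plus 1 (log axis) of each desmosome gene in all 20 libraries, 1 point per library, with knockdown or SE day 3 groups left of the group each is set against. Each pair of groups was scaled separately, so heights compare within a pair only; DSP shows the widest gaps at day 7, and DSG3 stays under 100 normalized counts in all libraries.

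The cadherins DSG2 and DSC2, the pair usual in simple epithelia, had different ranges of change. DSC2 had 4019 and 3708 normalized counts in SE day 3 and 546 and 584 in hESC libraries, with a log2 fold change of 2.77 ± 0.059 (limma adjusted p = 4.09e-13). DSG2 had 7023 and 7055 in SE day 3 and 5423 and 5202 in hESC libraries, with a log2 fold change of 0.41 ± 0.038 (limma adjusted p = 6.13e-07). Both were higher at SE day 3 with no overlap, DSC2 by 6.83 fold and DSG2 by 1.33 fold.

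In the FOXO4 arm, DSC2 had 2262 and 2575 in shFOXO4 and 4983 and 5391 in scramble libraries at day 3 (log2 fold change -1.10 ± 0.049). At day 7 DSC2 had 854 and 916 in shFOXO4 and 4072 and 3776 in scramble libraries (log2 fold change -2.15 ± 0.069). DSC2 was therefore lower in each shFOXO4 library than in either scramble library at both days. DSG2 had 7161 and 7645 in shFOXO4 and 8351 and 8492 in scramble libraries at day 3, a log2 fold change of -0.19 ± 0.040 (limma adjusted p = 7.63e-05). At day 7 DSG2 had 3383 and 3539 in shFOXO4 and 4200.4 and 4065 in scramble libraries, a log2 fold change of -0.26 ± 0.056 (limma adjusted p = 0.00267). DSG2 fell past the threshold at both days, by a small amount each time.

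In the SP6 arm, DSC2 had 2768 and 2753 in shSP6 and 6288 and 5690.0 in scramble libraries at day 3 (log2 fold change -1.12 ± 0.062). At day 7 DSC2 had 757 and 749.5 in shSP6 and 3279 and 2589 in scramble libraries (log2 fold change -1.95 ± 0.11). The limma adjusted p for DSC2 was 1.97e-07 at day 3 and 4.34e-07 at day 7, and the groups were apart at both days. DSG2 had 7411 and 7063 in shSP6 and 10142 and 8927 in scramble libraries at day 3, a log2 fold change of -0.40 ± 0.067 (limma adjusted p = 4.99e-04). At day 7 DSG2 had 4599 and 4783 in shSP6 and 6109.7 and 5853 in scramble libraries, a log2 fold change of -0.35 ± 0.070 (limma adjusted p = 0.00175). DSG2-AS1 and DSCAS overlap DSG2 and DSC2 on the opposite strand, and with the strand setting of the counting not given in the sources used here, reads shared with them are uncertain.

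DSC3, a desmocollin of stratified epithelia, was the member that fell in SE day 3 cells, with 122 and 116 normalized counts in SE day 3 and 192 and 188 in hESC libraries. The groups did not overlap, and the log2 fold change was -0.67 ± 0.13 (limma adjusted p = 4.77e-04). In shFOXO4 cells DSC3 had 55.3 and 55.3 at day 3, against 80.9 and 105 in scramble cells, a log2 fold change of -0.73 ± 0.18 (limma adjusted p = 6.27e-04). At day 7 DSC3 had 56.5 and 77.3 in shFOXO4 and 115 and 106 in scramble libraries, a log2 fold change of -0.73 ± 0.22 (limma adjusted p = 0.016). That call was lost without shFOXO4 day 7 replicate 1 (-0.51, adjusted p = 0.121) and without its scramble replicate 1 (-0.67, adjusted p = 0.0731).

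Under SP6 knockdown DSC3 had 107 and 95.4 in shSP6 and 103 and 98.1 in scramble libraries at day 3, and the groups overlapped. Its log2 fold change of 0.0043 ± 0.16 (limma adjusted p = 0.984) did not pass the test. At day 7 DSC3 had 106 and 129.8 in shSP6 and 133 and 143 in scramble libraries, with a log2 fold change of -0.23 ± 0.18 (limma adjusted p = 0.295) that also missed the threshold.

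DSG3, the desmoglein of the deep layers of stratified epithelia, was near the floor of detection at day 3. It had 4.21 and 3.78 normalized counts in SE day 3 and 0 and 1.08 in hESC libraries, and it was not tested there or in the other day 3 tables. Its day 3 values were 9.56 and 2.59 in shFOXO4 and 3.07 and 5.24 in scramble libraries, and 9.70 and 2.17 in shSP6 and 4.44 and 1.01 in scramble libraries, with overlap in both arms. At day 7 DSG3 had 43.4 and 35.5 in shFOXO4 and 12.4 and 7.997 in scramble libraries, a log2 fold change of 1.87 ± 0.38 (limma adjusted p = 0.00158).

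In the SP6 arm at day 7 DSG3 had 69.98 and 77.2 in shSP6 and 2.28 and 17.7 in scramble libraries, a log2 fold change of 3.25 ± 0.65. The scramble mean there was 9.99 ± 10.9 (SD, n = 2), under the filter of 10, so DSG3 entered that test only through the shSP6 libraries in which it was high, and the value is a description. DSG3 was higher in both knockdown libraries than in both scramble libraries in each arm. The size of the SP6 value rested on the scramble libraries, which differ widely: leaving out the first of them gave 1.99, and leaving out the other gave 4.51.

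JUP and PKP2, the plaque proteins between cadherins and desmoplakin, changed in the same direction in every comparison. JUP, which also belongs to adherens junctions, had 8979 and 9250.5 normalized counts in SE day 3 and 2886 and 2943 in hESC libraries, a log2 fold change of 1.64 ± 0.039 (limma adjusted p = 9.36e-13). PKP2 had 6108 and 5787 in SE day 3 and 1175 and 1253 in hESC libraries, a log2 fold change of 2.29 ± 0.049 (limma adjusted p = 4.31e-13). Both were higher in each SE day 3 library than in either hESC library.

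JUP had 3575 and 3498 in shFOXO4 and 7901 and 7835 in scramble libraries at day 3 (log2 fold change -1.15 ± 0.040). At day 7 JUP had 6634 and 6769 in shFOXO4 and 19095 and 17669 in scramble libraries (log2 fold change -1.45 ± 0.057). The shFOXO4 libraries were thus the lower ones at each day, at 44.95% and 36.5% of scramble. With SP6 knocked down JUP had 5600.4 and 5816 in shSP6 and 16388 and 14246 in scramble libraries at day 3 (log2 fold change -1.42 ± 0.068). At day 7 it had 3507 and 3237 in shSP6 and 12989 and 11005 in scramble libraries (log2 fold change -1.83 ± 0.090), or 28.2% of scramble. The highest of these 4 limma adjusted p-values was 1.83e-07.

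PKP2 had 2699.9 and 2867 in shFOXO4 and 7449 and 7277 in scramble libraries at day 3 (log2 fold change -1.40 ± 0.042). At day 7 PKP2 had 2434 and 2518 in shFOXO4 and 7145 and 7585 in scramble libraries (log2 fold change -1.57 ± 0.057). The knockdown libraries were low at both days. In the SP6 arm PKP2 had 3753 and 3764 in shSP6 and 9764 and 8858 in scramble libraries at day 3 (log2 fold change -1.31 ± 0.060). At day 7 it had 1929.7 and 2058 in shSP6 and 6550.3 and 5935 in scramble libraries (log2 fold change -1.65 ± 0.079). The highest of these 4 limma adjusted p-values was 1.60e-07. PKP2 overlaps AC087588.2 on the same strand and AC087588.1 on the other, so reads in those stretches are uncertain.

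PKP1 and PKP3, the other plakophilins, differed more between arms and days. PKP1, mainly a plakophilin of stratified epithelia, had 185 and 213 normalized counts in SE day 3 and 25.1 and 30.3 in hESC libraries, a log2 fold change of 2.80 ± 0.19 (limma adjusted p = 2.92e-08). PKP3, found in most epithelia, had 1044 and 1027 in SE day 3 and 704 and 675 in hESC libraries, a log2 fold change of 0.59 ± 0.062 (limma adjusted p = 2.16e-06). Both were higher in SE day 3 libraries without overlap.

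At day 3 PKP1 had 37.2 and 44.9 in shFOXO4 and 76.8 and 88.1 in scramble libraries, a log2 fold change of -0.99 ± 0.20 (limma adjusted p = 3.38e-05). At day 7 PKP1 had 42.04 and 41.8 in shFOXO4 and 58.3 and 34.99 in scramble libraries, and its log2 fold change of -0.11 ± 0.31 (limma adjusted p = 0.772) did not pass the test. The 2 scramble libraries lay on either side of the shFOXO4 libraries at day 7. In the SP6 arm PKP1 had 318 and 337 in shSP6 and 562 and 603 in scramble libraries at day 3, a log2 fold change of -0.83 ± 0.091 (limma adjusted p = 2.27e-05). At day 7 it had 127 and 105 in shSP6 and 332 and 239 in scramble libraries, a log2 fold change of -1.28 ± 0.19 (limma adjusted p = 2.83e-04). PKP1 was lower in all shSP6 libraries than in their scramble libraries.

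At day 3 PKP3 had 142 and 159 in shFOXO4 and 259 and 338 in scramble libraries, a log2 fold change of -0.97 ± 0.12 (limma adjusted p = 1.24e-09). At day 7 PKP3 had 918 and 887 in shFOXO4 and 2028 and 1992 in scramble libraries, a log2 fold change of -1.15 ± 0.065 (limma adjusted p = 4.41e-07). It was lower under FOXO4 knockdown at both days. Under SP6 knockdown at day 3 PKP3 had 1307 and 1265 in shSP6 and 1174 and 1164 in scramble libraries, with a log2 fold change of 0.14 ± 0.065 (limma adjusted p = 0.0951) that missed the threshold. Both shSP6 libraries were slightly above both scramble libraries, and under quantile normalization the value of 0.18 passed (adjusted p = 0.0313). At day 7 PKP3 had 1134 and 1062 in shSP6 and 1640.4 and 1569 in scramble libraries, a log2 fold change of -0.55 ± 0.083 (limma adjusted p = 3.11e-04).

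PERP, a membrane protein under p53 and p63 control that desmosomes of mouse skin need, had 3561 and 3303 normalized counts in SE day 3 and 1423 and 1325 in hESC libraries, a log2 fold change of 1.32 ± 0.054 (limma adjusted p = 1.93e-10). The groups were well apart. In the FOXO4 arm PERP had 2079 and 2133 in shFOXO4 and 5138 and 5070.3 in scramble libraries at day 3, a log2 fold change of -1.28 ± 0.044 (limma adjusted p = 2.35e-27). At day 7 PERP had 2822 and 2668 in shFOXO4 and 4567 and 4295 in scramble libraries, a log2 fold change of -0.69 ± 0.060 (limma adjusted p = 7.48e-06). The gap to scramble was narrower at day 7, with 61.96% of the scramble level at day 7 and 41.3% at day 3.

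Under SP6 knockdown PERP had 2724 and 2761 in shSP6 and 5698 and 5853 in scramble libraries at day 3, a log2 fold change of -1.07 ± 0.054 (limma adjusted p = 1.35e-07). At day 7 PERP had 1913 and 2000.0 in shSP6 and 4984 and 4572 in scramble libraries, a log2 fold change of -1.29 ± 0.077 (limma adjusted p = 6.69e-07). No shSP6 library reached a scramble library at either day.

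Whether a knockdown effect differed between days was tested as the difference of the 2 log2 fold changes over 8 libraries (limma, day 7 minus day 3). For FOXO4, 3 of 9 members had a more negative effect at day 7 and 2 a less negative one, where 30.7% of 14954 genes had a lower and 32.1% a higher value at day 7. The difference was -1.46 ± 0.11 (limma adjusted p = 3.60e-08) for DSP and -1.05 ± 0.097 (limma adjusted p = 4.36e-07) for DSC2. It was -0.30 ± 0.066 (limma adjusted p = 0.00114) for JUP, 0.59 ± 0.072 (limma adjusted p = 6.80e-06) for PERP and 0.89 ± 0.37 (limma adjusted p = 0.0485) for PKP1. DSP and DSC2 thus stood further below scramble at day 7 than at day 3, PERP less far. The call for PKP1 was lost without any of 7 single libraries, and without FOXO4-arm scramble day 7 replicate 2 its value was 0.53, adjusted p = 0.204.

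For SP6, 5 of 9 members had a more negative effect at day 7, where 20.3% of 15992 genes had a lower value, and 0 had a less negative one, where 14.8% of genes had a higher value. The difference was -1.58 ± 0.25 (limma adjusted p = 5.49e-04) for DSP, -0.84 ± 0.14 (limma adjusted p = 6.95e-04) for DSC2 and -0.69 ± 0.100 (limma adjusted p = 3.05e-04) for PKP3. It was -0.41 ± 0.13 (limma adjusted p = 0.0256) for JUP and -0.34 ± 0.10 (limma adjusted p = 0.0227) for PKP2. The calls for JUP and PKP2 were each lost without any of 5 single libraries, with adjusted p up to 0.0978 for JUP and 0.0807 for PKP2. The scramble cells of the arms and days were separate libraries, and day and table cannot be told apart. The median difference was -0.17 over the 9 members for FOXO4 and -0.41 for SP6, against all-gene medians of 0.02 and -0.06.

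**Figure D3:**
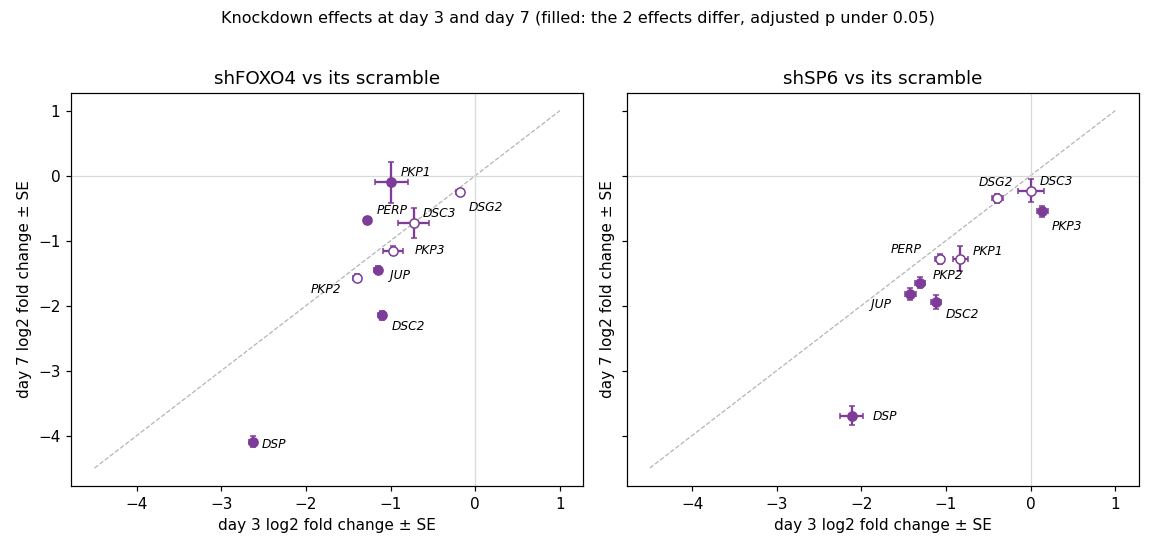
Log2 fold change of each of 9 desmosome genes at day 3 (x axis) and day 7 (y axis) with standard errors, for shFOXO4 (left) and shSP6 (right) against their scramble cells, with filled points where the 2 effects differ at an adjusted p under 0.05 and a dashed line of equal effects. DSP and DSC2 lie below the line in both panels, by -1.46 and -1.05 for shFOXO4 and by -1.58 and -0.84 for shSP6, and PERP lies above it for shFOXO4.

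The 2 knockdowns were compared in the same way, as the shSP6 effect minus the shFOXO4 effect. Each arm had its own tables and scramble cells, so arm and table cannot be told apart in these differences. The scramble cells themselves differed at day 3, with a mean log2 ratio of PKP3 to PKP2 of -2.99 in the SP6 arm and -4.63 in the FOXO4 arm. At day 3, 4 of 9 members had a less negative effect under shSP6, where 18.7% of 15476 genes were higher, and 1 had a more negative one, where 18.1% were lower. PKP3 differed by 1.11 ± 0.15 (limma adjusted p = 2.39e-05), DSC3 by 0.73 ± 0.24 (limma adjusted p = 0.0252) and DSP by 0.51 ± 0.16 (limma adjusted p = 0.0216). PERP differed by 0.20 ± 0.066 (limma adjusted p = 0.0238) and JUP by -0.27 ± 0.080 (limma adjusted p = 0.0152). At day 3, therefore, PKP3 and DSC3 were lower under FOXO4 knockdown and not called under SP6 knockdown, and the difference itself passed for both. That for PKP3 also passed with any single library left out, whereas those for DSP, DSC3, JUP and PERP each lost the call without some single libraries. The highest adjusted p among those that lost it was 0.134 for DSP, 0.127 for DSC3, 0.0698 for JUP and 0.0866 for PERP, with DSP ranging from 0.28 to 0.74 as each library in turn was left out.

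At day 7, 1 of 10 members had a higher value under shSP6 and 3 a lower one, where 19.9% of 16043 genes were higher and 29.1% lower. PKP3 differed by 0.61 ± 0.10 (limma adjusted p = 3.92e-04) and PERP by -0.60 ± 0.097 (limma adjusted p = 3.33e-04). PKP1 differed by -1.17 ± 0.36 (limma adjusted p = 0.018) and JUP by -0.37 ± 0.11 (limma adjusted p = 0.0166). The difference for DSP was 0.40 ± 0.20 (limma adjusted p = 0.116) and did not pass. That for DSG3 was 1.38 ± 0.87. It is a description only, since DSG3 passed the filter in the SP6 arm through the shSP6 libraries in which it was high. Both differences rested on single scramble libraries of the SP6 arm: DSP was 0.67 without replicate 1, and DSG3 was 2.63 without replicate 2 and 0.12 without replicate 1. With quantile normalization DSP was at 0.64 and passed (limma adjusted p = 0.0219). The calls for PKP3 and PERP passed with any single library left out. That for PKP1 was lost without FOXO4-arm scramble day 7 replicate 2 (-0.81, adjusted p = 0.0612), among others, and that for JUP was lost without any of 4 single libraries, with an adjusted p of up to 0.0703.

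Ratios between 2 members within a library do not depend on the scaling of that library. The log2 ratio of DSP to DSG2 was 0.20 and 0.17 in SE day 3 and -1.17 and -1.06 in hESC libraries. In the FOXO4 arm it was -2.12 and -2.06 in shFOXO4 and 0.41 and 0.29 in scramble libraries at day 3, and -0.43 and -0.72 in shFOXO4 and 3.16 and 3.36 in scramble libraries at day 7. In the SP6 arm it was -1.11 and -0.69 in shSP6 and 0.96 and 0.68 in scramble libraries at day 3, and -1.44 and -1.37 in shSP6 and 2.19 and 1.70 in scramble libraries at day 7. In every comparison the ratio separated the 2 groups without overlap, higher in SE day 3 cells than in hESC and lower in knockdown cells than in scramble cells.

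Between the plakophilins the order ran the other way. The log2 ratio of PKP3 to PKP2 was -2.55 and -2.49 in SE day 3 and -0.74 and -0.89 in hESC libraries. It was -4.24 and -4.16 in shFOXO4 and -4.84 and -4.43 in scramble libraries at day 3, and -1.41 and -1.50 in shFOXO4 and -1.82 and -1.93 in scramble libraries at day 7. It was -1.52 and -1.57 in shSP6 and -3.06 and -2.93 in scramble libraries at day 3, and -0.77 and -0.95 in shSP6 and -1.997 and -1.92 in scramble libraries at day 7. PKP2 was thus the more prominent of the pair in SE day 3 than in hESC libraries, and less so in knockdown than in scramble libraries.

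The desmocollins showed the same order. The log2 ratio of DSC3 to DSC2 was -5.03 and -4.98 in SE day 3 and -1.50 and -1.63 in hESC libraries. It was -5.33 and -5.52 in shFOXO4 and -5.93 and -5.67 in scramble libraries at day 3, and -3.89 and -3.55 in shFOXO4 and -5.14 and -5.14 in scramble libraries at day 7. It was -4.68 and -4.84 in shSP6 and -5.92 and -5.84 in scramble libraries at day 3, and -2.82 and -2.52 in shSP6 and -4.61 and -4.17 in scramble libraries at day 7. The ratio was lower in SE day 3 than in hESC libraries and higher in each knockdown group than in its scramble group, with no overlap. These ratios are descriptions, with 2 libraries a group and no test.

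**Figure D4:**
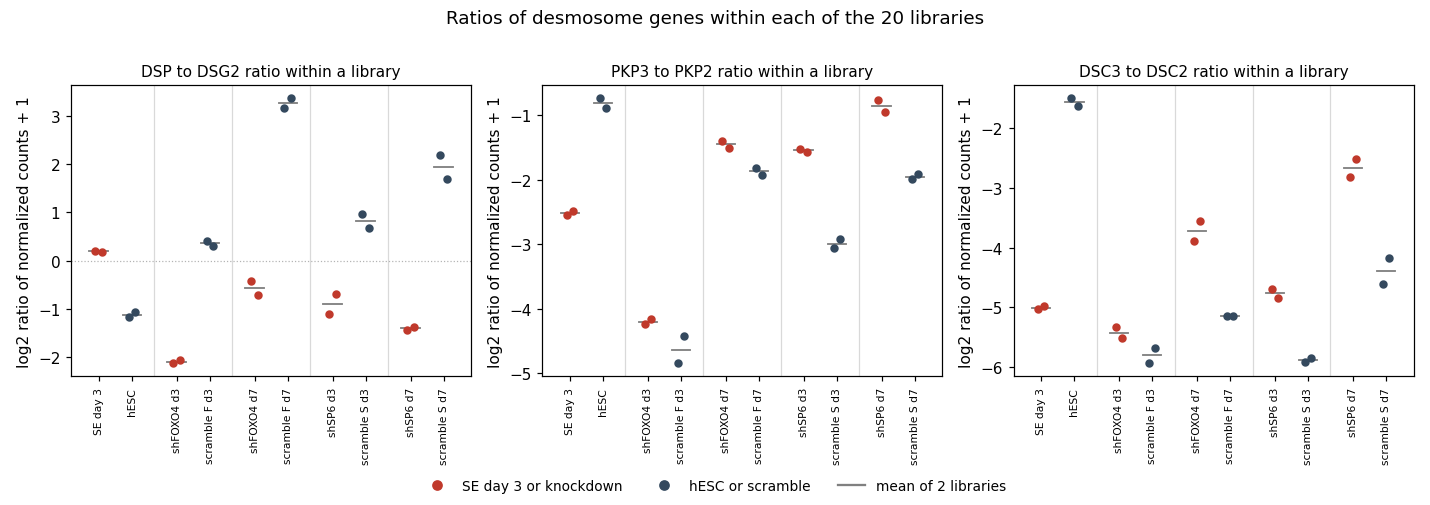
Log2 ratio of 2 desmosome genes (normalized counts plus 1) within each of the 20 libraries, 1 point per library, with knockdown or SE day 3 groups left of the group each is set against. DSP to DSG2 has group means of -0.58 in shFOXO4 and 3.26 in scramble cells at day 7, while PKP3 to PKP2 and DSC3 to DSC2 are higher in knockdown than in scramble cells.

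Levels of different members were compared per kilobase of merged exons. In SE day 3 cells JUP was highest at 1844 ± 38.9 normalized counts per kilobase (SD, n = 2), then DSG2 at 1137 ± 3.70. PKP2 at 844 ± 32.2, PERP at 800.0 ± 42.5 and DSP at 794 ± 10.2 followed, with PERP within its spread of DSP. DSC2 was at 309 ± 17.6 and PKP3 at 273 ± 3.17, and PKP1, DSC3 and DSG3 closed the order at 32.03 ± 3.09, 16.9 ± 0.5999 and 0.723 ± 0.0556. In hESC the order was led by DSG2 at 858 ± 25.3, JUP at 589.8 ± 8.15 and PERP at 320.3 ± 16.1, with DSP at 243 ± 5.48. PKP3 at 182 ± 5.44 and PKP2 at 172 ± 7.80 were neighbours in that order.

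In shFOXO4 cells at day 7 JUP led at 1356 ± 19.3 per kilobase, then PERP at 639.9 ± 25.3 and DSG2 at 559 ± 17.8, and DSP at 231 ± 25.99 came after PKP2 at 352 ± 8.36 and within its spread of PKP3 at 238 ± 5.79. In their scramble cells DSP at 3932 ± 283 and JUP at 3719.5 ± 204 led and overlapped in spread, ahead of PKP2 at 1046 ± 44.2. In shSP6 cells at day 7 DSG2 led by merged exon length at 758 ± 20.98 and JUP followed at 682 ± 38.6, with DSP at 176 ± 10.4. In their scramble cells JUP at 2428 ± 284 and DSP at 2323 ± 628 led and did not differ beyond their spread. DSP thus held a place among the top 2 in day 7 scramble cells and the place 6 in both day 7 knockdowns.

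At day 3 the same order held DSG2 first in shFOXO4 cells at 1196 ± 55.3, with DSP at 172 ± 13.02, against JUP first in scramble cells at 1592 ± 9.42, with DSP at 1066 ± 49.03. In shSP6 cells at day 3 DSG2 at 1169 ± 39.9 and JUP at 1155 ± 30.9 did not differ beyond their spread, with DSP at 387 ± 66.05, and in their scramble cells JUP led at 3099 ± 306 with DSP at 1685 ± 379.5. These orders depended on the length used. With the longest coding transcript in place of merged exons, JUP led in shSP6 cells at both days, at 964 against 804 per kilobase for DSG2 at day 7 and 1632 against 1241 at day 3. JUP then also led in the scramble cells of the FOXO4 arm at day 7, and PKP2 took the second place in SE day 3 cells and in the day 3 scramble cells of both arms.

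Other junction genes were read from lists of related genes. Of 12 adherens junction genes, 9 were higher and 2 lower in SE day 3 cells, where 35.2% of all genes were higher and 37.0% lower, with a median log2 fold change of 0.71. In shFOXO4 cells 1 was higher and 11 of the 12 were lower at day 3, where 31.8% of all genes were higher and 30.8% lower, and 1 was higher and 10 were lower at day 7, where 37.1% were higher and 35.4% lower. In shSP6 cells 2 were higher and 9 lower at day 3, where 28.3% of all genes were higher and 27.5% lower, and 2 were higher and 8 lower at day 7, where 29.0% were higher and 29.6% lower. NECTIN4, a nectin of epithelial adherens junctions, had 507 and 497 in SE day 3 and 12.5 and 11.9 in hESC libraries, and at day 7 105 and 88.8 in shFOXO4 and 1116 and 951 in scramble libraries (log2 fold change -3.40 ± 0.13). CDH2, or N-cadherin, was higher in shSP6 cells, with 1401 and 1395 in shSP6 and 318 and 336 in scramble libraries at day 7 (log2 fold change 2.09 ± 0.094), and by 1.08 ± 0.078 on the log2 scale at day 3. In shFOXO4 cells CDH2 was lower at both days, with 335 and 372 in shFOXO4 and 605 and 513 in scramble libraries at day 3 and a log2 fold change of -0.66 ± 0.084 at day 3 and -0.46 ± 0.14 at day 7. CDH1, or E-cadherin, fell in all 4 knockdown comparisons, by 0.97 to 1.15 on the log2 scale, for example in shFOXO4 cells at day 3, with 5823 and 6009 in shFOXO4 and 11749.7 and 12097 in scramble libraries (log2 fold change -1.01 ± 0.039).

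Of the 10 intermediate filament and linker genes, 5 higher and 1 lower of 7 tested were called in SE day 3 cells. The count was 0 higher and 5 lower of 6 in shFOXO4 cells at day 3, 2 higher and 4 lower of 9 at day 7, 2 higher and 5 lower of 7 in shSP6 cells at day 3 and 3 higher and 4 lower of 7 at day 7, where 27.5% to 37.1% of all genes were called in each direction in each comparison. KRT7, a keratin of simple epithelia, had 428 and 444 in shFOXO4 and 19876 and 21603 in scramble libraries at day 7 (log2 fold change -5.57 ± 0.063). KRT7 had 318 and 299 in shSP6 and 16050.1 and 11365 in scramble libraries at day 7 (log2 fold change -5.45 ± 0.14). VIM, or vimentin, another intermediate filament protein, was higher at day 7 in both knockdowns, with 939 and 947 in shFOXO4 and 146 and 183 in scramble libraries, and 2967 and 2843 in shSP6 and 329 and 359.7 in scramble libraries. At day 3 VIM was lower in shFOXO4 cells (log2 fold change -1.81 ± 0.093) and higher in shSP6 cells (1.42 ± 0.10), and it was lower in SE day 3 cells than in hESC (-2.59 ± 0.10).

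Hemidesmosome genes anchor cells to the matrix. Of 8 tested, SE day 3 cells had 0 higher and 4 lower than in hESC, and the counts were 2 and 5 in shFOXO4 cells at day 3, 2 and 3 at day 7, 3 and 2 in shSP6 cells at day 3, and 2 and 1 at day 7. All-gene shares called in 1 direction were 27.5% to 37.1% over these comparisons, so several of these counts lie near the background. Of 7 further desmosome and plakin genes, 2 or 3 were tested in each table. In SE day 3 cells 1 was higher and 1 lower of 3. In shFOXO4 cells 0 were higher and 1 lower of 2 at day 3, and 1 higher and 2 lower of 3 at day 7. In shSP6 cells 1 was higher and 0 lower of 3 at day 3, and 1 higher and 2 lower of 3 at day 7. The gene lower in SE day 3 cells was EVPL, at a mean of 18.0 normalized counts (log2 fold change -2.22 ± 0.40). PPL (periplakin) was higher in SE day 3 cells, with 1755 and 1777 in SE day 3 and 1362 and 1326 in hESC libraries, and was lower in shFOXO4 cells at day 3, with 834 and 812 in shFOXO4 and 1814 and 1729.6 in scramble libraries (log2 fold change -1.11 ± 0.056). PPL was not called in shSP6 cells at day 3 (log2 fold change 0.029 ± 0.061, limma adjusted p = 0.716) and was lower by a small amount in both knockdowns at day 7 (-0.42 ± 0.059 in shFOXO4 and -0.30 ± 0.071 in shSP6 cells). PKP4, a plakophilin relative, was lower in shFOXO4 cells at day 7, with 1232 and 1268 in shFOXO4 and 2403 and 2679.9 in scramble libraries (log2 fold change -1.02 ± 0.071), and in shSP6 cells at day 7 (-0.41 ± 0.077), and was not called in either knockdown at day 3.

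Among 15 genes known to regulate desmosome genes or to shed their proteins, 11 higher and 3 lower of 14 tested were called in SE day 3 cells. The knockdown counts were 2 higher and 10 lower of 13 in shFOXO4 cells at day 3, 3 higher and 8 lower of 13 at day 7, 1 higher and 10 lower of 14 in shSP6 cells at day 3 and 2 higher and 10 lower of 13 at day 7, against 27.5% to 37.1% of all genes called in each direction in the 5 comparisons. TP63, the transcription factor that controls PERP in stratified epithelia, had 17.1 and 11.5 in shFOXO4 and 509 and 422 in scramble libraries at day 7, and 1.26 and 1.22 in shSP6 and 499.8 and 445 in scramble libraries. SNAI1, a repressor of epithelial cadherins, had 409 and 411 in shFOXO4 and 46.8 and 46.98 in scramble libraries at day 7 (log2 fold change 3.10 ± 0.16), and 215 and 187 in shSP6 and 126 and 142 in scramble libraries (log2 fold change 0.58 ± 0.16). TP63 was lower, and SNAI1 higher, in both day 7 knockdowns, with no overlap. GRHL1, a Grainyhead-like factor known to act on DSG1 in mouse epidermis, fell at day 3 in shFOXO4 cells by 2.80 and in shSP6 cells by 2.001 on the log2 scale.

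The genes whose 5 log2 fold changes lay closest to those of DSP, by Euclidean distance over the 5 comparisons among 14673 genes tested in all 5 tables, were FOLR1 at 0.772, PLXNA2 at 0.825, DOK4 at 0.934, SPSB4 at 1.02 and ENSG00000261586, which has no symbol in the table used, at 1.04. None of the 5 is a desmosome gene. The nearest member to DSP was DSC2 at 3.36, in place 352 of that order. The closest pair of members was JUP and PKP2, 0.736 apart, followed by DSC2 and PKP2 at 0.885. Distances over 5 values from 20 libraries are a description only.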

How the data were processed

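RNA was measured in 20 libraries of H1 cells; per the labels' protocols it was extracted with a MolPure kit and made into TruSeq Stranded mRNA libraries. Build hg19 and the tools DESeq2 1.20.0, RSEM 1.3.0, STAR 2.6.1 and Trimmomatic 0.39 are listed, without role or order, per the submitters' processing notes. The values the authors deposited are normalized counts (unit: signal), in 5 tables that hold 4 libraries apiece and were scaled separately; whole reads came back from 100.0% of values (tolerance 0.001 read). Table names gave the comparison and day, and column names the group and replicate.

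Symbols came from the gene name and GENCODE v29 tables (29566 of 31155 identifiers matched). The members and lists were chosen with earlier results of these data known. The named genes are the 10 members, FOXO4 and SP6, up to 2 called genes each way per list with a mean of at least 100 (a selection of which is described), and the 5 nearest to DSP. Tests used limma 3.58.1 in R 4.3.3 (two-sided, trend) on log2(normalized count + 1), which understates changes of low genes, keeping genes whose mean was 10 or more, with Benjamini-Hochberg adjustment over all genes and calls under 0.05. With 2 residual degrees of freedom, the spread is borrowed across genes (prior degrees of freedom 6.848 to 39.58). Alternatives were other pseudocounts, filters, TMM and quantile scaling, a replicate block, leaving out each library and, added after seeing the data, edgeR 4.0.16 on the recovered reads. The scripts were tested on simulated data. Replicates differed beyond counting error (chi-square per degree of freedom 1.78 to 7.99).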

Additional observations from a re-analysis of the deposited data

Results flagged for a closer look

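Of 37 member differences between knockdown effects, 19 passed a test of the difference itself (limma, adjusted p under 0.05). Over all genes and both directions, the called share was lowest for shSP6 at day 7 minus day 3, with 5608 of 15992 genes. It was highest for shFOXO4 at day 7 minus day 3, with 9383 of 14954 genes, so the count of 19 is no result about the members. Of the 19, 10 passed under every alternative run. Those 10 were, for shFOXO4 at day 7 minus day 3, DSP at -1.46, DSC2 at -1.05, JUP at -0.30 and PERP at 0.59 on the log2 scale. For shSP6 at day 7 minus day 3 they were DSP at -1.58, DSC2 at -0.84 and PKP3 at -0.69. For shSP6 minus shFOXO4 they were PKP3 at 1.11 at day 3, and PKP3 at 0.61 and PERP at -0.60 at day 7.

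The other 9 lost the call under at least 1 alternative. For shFOXO4 at day 7 minus day 3, PKP1 was at 0.89, and its call was lost with a pseudocount of 0.5, with no filter on low values, with TMM factors, with quantile normalization and without FOXO4-arm scramble day 7 replicate 2, shFOXO4 day 7 replicate 1, shFOXO4 day 7 replicate 2, FOXO4-arm scramble day 3 replicate 1, FOXO4-arm scramble day 3 replicate 2, shFOXO4 day 3 replicate 1 or shFOXO4 day 3 replicate 2 (values 0.32 to 1.02, adjusted p 0.0508 to 0.448). For shSP6 at day 7 minus day 3, PKP2 was at -0.34, and its call was lost without SP6-arm scramble day 7 replicate 1, shSP6 day 7 replicate 1, SP6-arm scramble day 3 replicate 2, shSP6 day 3 replicate 1 or shSP6 day 3 replicate 2 (values -0.34 to -0.27, adjusted p 0.069 to 0.0807). JUP in the same comparison was at -0.41, and its call was lost without SP6-arm scramble day 7 replicate 1, shSP6 day 7 replicate 2, SP6-arm scramble day 3 replicate 2, shSP6 day 3 replicate 1 or shSP6 day 3 replicate 2 (values -0.43 to -0.29, adjusted p 0.0602 to 0.0978).

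For shSP6 minus shFOXO4 at day 3, DSP was at 0.51, and its call was lost without shSP6 day 3 replicate 2, FOXO4-arm scramble day 3 replicate 1 or shFOXO4 day 3 replicate 1 (values 0.34 to 0.47, adjusted p 0.0911 to 0.134). It remained called at 0.74 without SP6-arm scramble day 3 replicate 1 and at 0.28 without replicate 2. DSC3 was at 0.73, and its call was lost without shSP6 day 3 replicate 1, FOXO4-arm scramble day 3 replicate 2, shFOXO4 day 3 replicate 1 or shFOXO4 day 3 replicate 2 (values 0.55 to 0.73, adjusted p 0.0597 to 0.127). JUP was at -0.27, and its call was lost with quantile normalization and without shSP6 day 3 replicate 1, FOXO4-arm scramble day 3 replicate 2 or shFOXO4 day 3 replicate 1 (values -0.26 to -0.18, adjusted p 0.0589 to 0.0851), and without SP6-arm scramble day 3 replicate 1 it was called at -0.17. PERP was at 0.20, and its call was lost without shSP6 day 3 replicate 1, shSP6 day 3 replicate 2, FOXO4-arm scramble day 3 replicate 1, FOXO4-arm scramble day 3 replicate 2 or shFOXO4 day 3 replicate 1 (values 0.18 to 0.21, adjusted p 0.0592 to 0.0866). At day 7, PKP1 was at -1.17, and its call was lost with quantile normalization and without SP6-arm scramble day 7 replicate 1, shSP6 day 7 replicate 2 or FOXO4-arm scramble day 7 replicate 2 (values -1.03 to -0.59, adjusted p 0.0612 to 0.181). JUP was at -0.37, and its call was lost with quantile normalization and without SP6-arm scramble day 7 replicate 1, shSP6 day 7 replicate 2, FOXO4-arm scramble day 7 replicate 2 or shFOXO4 day 7 replicate 2 (values -0.36 to -0.25, adjusted p 0.0552 to 0.0945).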

How the results depend on the processing

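Of 47 member fold changes in the 5 comparisons, 43 were called. Over all genes and both directions, the called share was lowest in shSP6 at day 3, with 9232 of 16548 genes, and highest in shFOXO4 at day 7, with 11881 of 16374. Of the 43, 42 were called under every alternative in which the gene was tested, and 0 of the called ones changed sign. The edgeR test on recovered reads gave the same direction and call for all 47 and was not run on the differences between effects. DSC3 in shFOXO4 at day 7 lost its call without either of 2 single libraries. A call rule that also asks for a log2 change of 1 or more in size left 0 members lower in SE day 3 cells and 5 lower in shFOXO4 cells at each day. A mean of at least 50 left 0 members higher in either day 7 knockdown, since DSG3 was then not tested. Quantile normalization called 1 member higher in shSP6 at day 3 (PKP3). For differences between effects (shFOXO4 day 7 minus day 3), 1 member was higher with a pseudocount of 0.5, no filter, a mean of at least 50, TMM factors or quantile normalization. For shSP6 minus shFOXO4, quantile normalization gave 0 lower at day 3 and 3 higher at day 7. Replicate numbers did not pair the samples (correlations of same-numbered deviations -0.050 to 0.059); the replicate block gave 2 members lower for shSP6 minus shFOXO4 at day 3 and changed no other call. Leaving out single libraries gave 7 to 8 members lower in shFOXO4 at day 7; for differences it gave, for shFOXO4 day 7 minus day 3, 1 to 2 higher and 3 to 4 lower, for shSP6 3 to 7 lower, and for shSP6 minus shFOXO4 1 to 5 higher and 0 to 2 lower at day 3, and 1 to 3 higher and 1 to 3 lower at day 7. Values that changed sign were all uncalled: with quantile normalization DSC3 in shSP6 at day 3 (-0.060), DSG2 day 7 minus day 3 in shFOXO4 (0.021) and shSP6 (-0.025), and DSC2 shSP6 minus shFOXO4 at day 3 (0.0024, and 0.0077 with TMM factors). Without single libraries the ranges crossing 0 were -0.47 to 0.25 for PKP1 in shFOXO4 at day 7, -0.076 to 0.085 for DSC3 in shSP6 at day 3, -0.23 to 0.22 for DSC3 and -0.37 to 0.0076 for PKP3 in shFOXO4 day 7 minus day 3, -0.047 to 0.14 for DSG2 in shSP6 day 7 minus day 3, and -0.11 to 0.081 for DSC2 in shSP6 minus shFOXO4 at day 3. The cause was not tested. DSG3, under 10 normalized counts in the day 3 libraries, limits what depth can show.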

Other observations

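The 2 scramble groups at day 3, which the labels describe alike apart from the arm, did not have like plakophilin levels. PKP3 had 1174 and 1164 normalized counts in scramble libraries of the SP6 arm and 259 and 338 in those of the FOXO4 arm. PKP1 had 562 and 603 in the SP6 arm and 76.8 and 88.1 in the FOXO4 arm. The tables were scaled separately, but ratios within a library, which that scaling does not touch, also stood apart. The log2 ratio of PKP1 to PKP2 was -4.12 and -3.88 in scramble libraries of the SP6 arm and -6.58 and -6.35 in those of the FOXO4 arm, and that of PKP3 to PKP2 was -3.06 and -2.93 in the SP6 arm and -4.84 and -4.43 in the FOXO4 arm. At day 7 the ratio of PKP3 to PKP2 no longer stood apart, at -1.997 and -1.92 in the SP6 arm and -1.82 and -1.93 in the FOXO4 arm, whereas that of PKP1 to PKP2 did, at -4.30 and -4.63 in the SP6 arm and -6.91 and -7.72 in the FOXO4 arm. No test was made across the tables.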
